A study of Mus musculus with 11 samples.

Results

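The potassium channel genes are the mouse genes whose symbol starts with Kcn followed by a family letter and a number, or with Kcnmb. They were measured in sorted green fluorescent cells of the adult dentate gyrus. On the array, 85 probe sets with a single gene symbol belonged to 83 such genes. Of these, 80 genes had a probe set above the array's 25th percentile on at least 2 arrays and were kept, out of 16527 genes tested in all. The 80 comprise 77 channel or subunit genes and 3 transcripts from the strand opposite a channel gene (Kcnd3os, Kcnmb4os1 and Kcnmb4os2). Kcne3, Kcnj1 and Kcnu1 were not kept. A total of 63 members lay above the 25th percentile on every one of the 11 arrays, and 17 lay at or below it on at least 1. Kcne2, Kcnh7 and Kcnj5 were above it on no NesGFP array, so they were kept only through the other lines. For Kcnj5 these were the 6 arrays of the Tbr2 lines alone. By this spelling of the rule the pore gene of the large-conductance calcium-activated channel, Kcnma1, is not a member and is described with the partner genes.

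The cells came from 4 mouse reporter lines at postnatal day 35, with the dorsal and ventral dentate gyrus cut out of 750 µm slices, dissociated and sorted by flow cytometry to about 3000 to 5000 cells per group. NesGFP mice (3 arrays) carry green fluorescent protein (GFP) under Nestin regulatory sequence, which is active in neural stem cells and also in cells of vessel walls. The kiTbr2GFP mice (3 arrays) have a knock-in of GFP at Eomes, which encodes the transcription factor Tbr2, a mark of intermediate neuronal progenitors. The tgTbr2GFP mice (3 arrays) carry GFP and Eomes sequence on a bacterial artificial chromosome (BAC) instead. PomcGFP mice (2 arrays) carry GFP under Pomc regulatory sequence, which in the dentate gyrus is active in newborn granule neurons. No group without a GFP reporter enters any comparison. RNA was amplified before it went onto Affymetrix Mouse Gene 1.0 ST arrays, and the values are robust multi-array average (RMA) values on a log2 scale, so a difference of 1 is a doubling. Whether the arrays of one line stand for different animals is not stated in the labels, so each p-value measures array-to-array spread that may be only technical.

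Potassium channels pass potassium ions across the cell membrane, and so set the resting potential and end electrical impulses. Voltage-gated channels of the Kcna to Kcnd, Kcnh and Kcnq families open on depolarisation, and members of the Kcnf, Kcng, Kcns and Kcnv families do not conduct alone but modify Kcnb channels. The Kcnj genes encode inward rectifiers, the Kcnk genes tandem-pore leak channels, the Kcnn and Kcnt genes channels gated by calcium or sodium, and the Kcne and Kcnmb genes accessory subunits. In the dentate gyrus, glia clear potassium through inward rectifiers, while newborn neurons acquire voltage-gated and G-protein-gated channels as they mature.

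The sequence before the transcription start is shown for 4 members that stand for the main patterns described here: Kcnj8 and Kcnj10, higher on the NesGFP arrays; Kcnh7, higher in both Tbr2 lines and PomcGFP; and Kcnj3, highest in PomcGFP. Each run is the 250 bases before the start given by RefSeq in build GRCm38.p6, 5′ to 3′ on the gene's strand. Capitals mark the E-box CANNTG, the letters read by basic helix-loop-helix factors. The Kcnj8 window lies at chr6:142571615-142571864 on the minus strand, the Kcnj10 window at chr1:172340960-172341209 on the plus strand, the Kcnh7 window at chr2:63184288-63184537 on the minus strand, and the Kcnj3 window at chr2:55435720-55435969 on the plus strand.
Kcnj8: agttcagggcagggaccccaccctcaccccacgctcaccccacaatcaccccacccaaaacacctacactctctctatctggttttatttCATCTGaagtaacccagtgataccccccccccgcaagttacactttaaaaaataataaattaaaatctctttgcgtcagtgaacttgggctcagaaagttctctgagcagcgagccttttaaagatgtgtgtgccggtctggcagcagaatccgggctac
Kcnj10: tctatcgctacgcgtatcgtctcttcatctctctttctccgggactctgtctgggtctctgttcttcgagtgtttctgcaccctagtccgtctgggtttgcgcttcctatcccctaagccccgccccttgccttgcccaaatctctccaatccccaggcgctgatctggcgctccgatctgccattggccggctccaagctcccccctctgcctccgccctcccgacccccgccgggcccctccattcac
Kcnh7: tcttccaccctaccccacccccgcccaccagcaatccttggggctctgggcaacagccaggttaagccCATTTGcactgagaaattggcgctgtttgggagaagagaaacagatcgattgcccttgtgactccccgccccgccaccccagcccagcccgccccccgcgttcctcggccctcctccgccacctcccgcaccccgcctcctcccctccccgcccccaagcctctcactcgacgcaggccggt
Kcnj3: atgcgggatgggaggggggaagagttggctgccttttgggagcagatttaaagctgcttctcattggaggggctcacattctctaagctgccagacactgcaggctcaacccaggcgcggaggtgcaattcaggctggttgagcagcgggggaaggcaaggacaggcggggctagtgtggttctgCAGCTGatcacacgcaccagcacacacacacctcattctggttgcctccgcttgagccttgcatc
An E-box occurs 1 time in each of the Kcnj8, Kcnh7 and Kcnj3 windows and 0 times in that of Kcnj10. The GC box GGGCGG, read on both strands, occurs 4 times in the Kcnh7 window, 2 times in the Kcnj10 window and 0 times in the Kcnj8 and Kcnj3 windows. Windows were listed for 60 of the 80 members, 75 windows in all. An E-box was present in 64% of them and in 66.2% of all 32851 windows of the same length, and a GC box in 46.7% against 32.7%; in 0 of the 75 windows did the motifs overlap. Among members lower in the Tbr2 lines than in NesGFP, 53.8% of 13 windows held an E-box, and among those higher 70.6% of 17 did. Among members higher in PomcGFP than in the Tbr2 lines, 16.7% of 6 windows did, the Kcnj3 window alone. These are matches of letters and not binding sites.

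The lines differ in more than stage. The mean log2 level of 12 astrocyte markers was 10.24 to 10.34 in NesGFP, 7.99 to 8.27 in kiTbr2GFP, 8.49 to 9.0 in tgTbr2GFP and 8.53 to 8.65 in PomcGFP, and all 12 were called lower in the Tbr2 mean. The same held for 10 of 10 endothelial, 10 of 10 pericyte and smooth muscle, 9 of 9 oligodendrocyte and 8 of 8 oligodendrocyte precursor markers. Endothelial markers averaged 9.83 to 9.95 on NesGFP arrays and 6.23 to 7.28 on all others, and pericyte and smooth muscle markers 9.29 to 9.5 against 6.86 to 7.4. Markers of several non-neuronal cell types were thus highest on the NesGFP arrays, and the part of those cells in a channel's level was not tested. In sorted bulk RNA, fewer cells of a type and less RNA per cell cannot be told apart. Granule neuron maturation markers averaged 8.95 to 9.17 in NesGFP and 9.57 to 9.68 in kiTbr2GFP. They averaged 9.93 to 10.08 in tgTbr2GFP and 10.38 to 10.44 in PomcGFP. By this mean, tgTbr2GFP lay nearer to PomcGFP than kiTbr2GFP did. Over the 13 genes, however, the median of kiTbr2GFP minus tgTbr2GFP was -0.00, and 1 gene was called. Against NesGFP, 8 of the 13 were called higher in the Tbr2 mean (background 19.8%). The 2 called lower (background 29.1%) include Calb1 at -1.22 ± 0.20. Cajal-Retzius markers, of early-born cells at the edge of the dentate gyrus, averaged 7.52 to 7.88 in NesGFP, 8.43 to 8.52 in kiTbr2GFP, 8.47 to 9.05 in tgTbr2GFP and 7.36 to 7.66 in PomcGFP. In the Tbr2 mean minus NesGFP, 4 of 7 were called higher, among them Reln at 2.79 ± 0.23, and their part in the channels higher in the Tbr2 lines was not tested.

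Across the fit, 31 of the 80 members (38.8%) differed among the 4 lines at an adjusted p under 0.05 by limma's moderated F test, against 43.4% of all genes. Taking the mean of the 2 Tbr2 lines minus NesGFP, 27 members (33.8%) were called, against a background of 48.9% of all genes. Of these, 17 were higher in the Tbr2 lines (background 19.8%) and 10 were lower (background 29.1%). With array medians centred first, Kcnd3os, Kcne1l, Kcnf1 and Kcnk3 were also called lower, at -0.29 to -0.36, so this split too depends on centring. The median difference over members was 0.04, and over all genes -0.02. For PomcGFP minus NesGFP, 30 members (37.5%) were called against 39.9% of all genes, with 23 higher (background 15.9%) and 7 lower (background 24%), and a median of 0.16 against 0.00. When array medians were centred first, that split became 17 higher and 10 lower. For PomcGFP minus the Tbr2 mean, 5 members (6.25%) were called against 3.73% of all genes, all 5 higher (background 2%). In that comparison limma called 0 members lower (background 1.73%), and 3 were lower at an unadjusted p under 0.05. Line by line, kiTbr2GFP minus NesGFP gave 26 calls (32.5%, background 45.2%), 15 higher (background 18.2%) and 11 lower (background 27%). In tgTbr2GFP minus NesGFP there were 28 (35%, background 41.6%), 18 higher (background 15.8%) and 10 lower (background 25.8%). PomcGFP minus kiTbr2GFP gave 5 calls (6.25%, background 4.88%), all higher (background 2.9%); 0 were lower (background 1.98%) by limma, and 1 was at an unadjusted p under 0.05. PomcGFP minus tgTbr2GFP gave 3 calls (3.75%, background 1.37%), 2 higher (background 0.545%) and 1 lower (background 0.823%). These comparisons share arrays. A total of 42 members passed no test in any of the 8 comparisons of lines or in the F test.

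The line with the highest mean was PomcGFP for 34 of the 77 channel and subunit genes (44.2%), against 24% of all genes. NesGFP was highest for 18 of the 77 (23.4%), against 42.3% of all genes. The line kiTbr2GFP was highest for 12 and tgTbr2GFP for 13. These are counts of means with no test, and for many of these genes the lines differ by less than the spread between arrays.

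**Figure D1:**
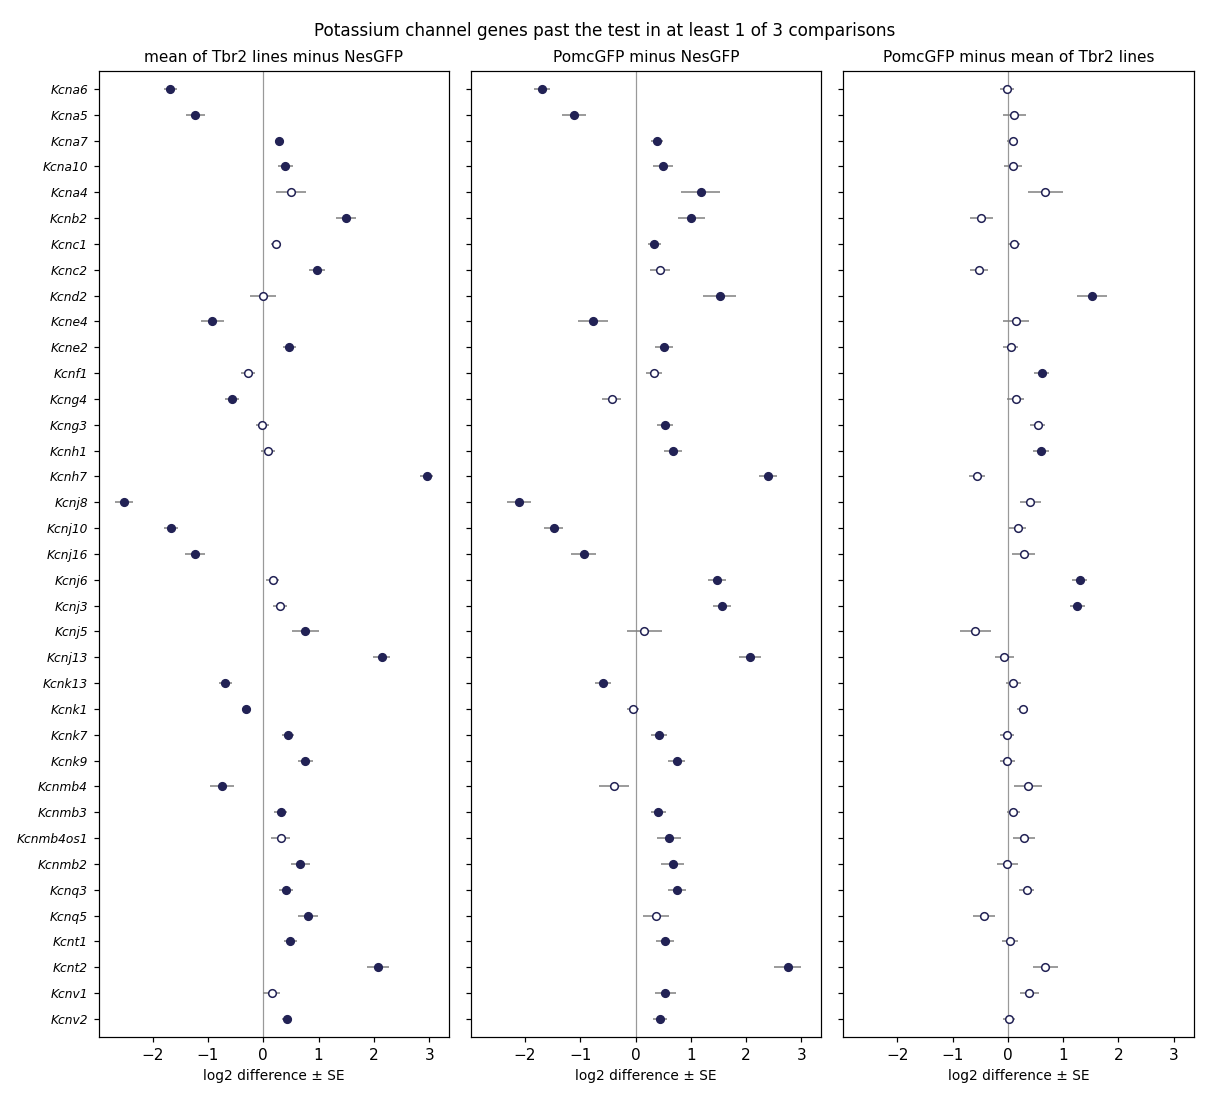
Log2 difference between lines with its standard error (horizontal axis, log2 units) for the 37 potassium channel genes called in at least 1 of the 3 comparisons shown; filled points have an adjusted p under 0.05 by limma, open points do not. Kcnh7 is the farthest to the right and Kcnj8 the farthest to the left in the first comparison, at 2.95 and -2.52, and the third comparison has 5 filled points, all to the right of 0.

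Of the 14 Kcnj genes, Kcnj8, Kcnj10 and Kcnj16 were called lower in the Tbr2 mean than in NesGFP. Kcnj8 encodes the pore of an ATP-sensitive channel known from pericytes and smooth muscle. Its log2 values were 9.68, 9.21 and 9.91 on the NesGFP arrays, 6.80, 6.95 and 7.16 in kiTbr2GFP, 6.90, 7.22 and 7.46 in tgTbr2GFP, and 7.37 and 7.61 in PomcGFP. Every NesGFP array lay above every other array. The Tbr2 mean minus NesGFP was -2.52 ± 0.17 (SE), a 5.72-fold difference (adjusted p = 3.79e-07, limma), and PomcGFP minus NesGFP was -2.11 ± 0.22 (adjusted p = 2.07e-05, limma).

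Abcc9, which encodes the sulfonylurea receptor subunit that assembles with the Kcnj8 pore, lies next to Kcnj8 on chromosome 6 with 0 protein-coding genes between them. Its values were 7.87, 8.28 and 7.95 in NesGFP and 6.45 to 6.75 on all other arrays. The Tbr2 mean minus NesGFP was -1.40 ± 0.12 (adjusted p = 2.70e-06, limma) and PomcGFP minus NesGFP was -1.38 ± 0.16. The pericyte markers Pdgfrb and Rgs5 moved with this pair, at -2.95 ± 0.12 and -1.84 ± 0.31 in the Tbr2 mean minus NesGFP, and their part in it was not tested. The other pore and receptor genes of ATP-sensitive channels, Kcnj11 and Abcc8, did not follow. Kcnj11 differed by 0.11 ± 0.11 (adjusted p = 0.436, limma), and Abcc8 was higher in the Tbr2 lines by 0.47 ± 0.09 (adjusted p = 0.000912, limma).

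Kcnj10, the main potassium-clearing inward rectifier of astrocytes and other glia, read 9.88, 9.94 and 9.87 in NesGFP. It read 8.13, 8.09 and 8.11 in kiTbr2GFP, 8.58, 7.95 and 8.50 in tgTbr2GFP, and 8.48 and 8.34 in PomcGFP. The NesGFP arrays lay close together and above every other array. The difference of the Tbr2 mean from NesGFP was -1.67 ± 0.13, or 3.18-fold (adjusted p = 1.14e-06, limma), and that of PomcGFP was -1.48 ± 0.17, or 2.8-fold. Kcnj16, whose product pairs with that of Kcnj10, read 7.97, 8.50 and 8.01 in NesGFP, 6.22, 6.60 and 6.90 in kiTbr2GFP, 7.39, 6.95 and 7.55 in tgTbr2GFP, and 7.23 and 7.22 in PomcGFP. The Tbr2 mean minus NesGFP was -1.23 ± 0.18 (adjusted p = 0.000156, limma). Kcnj9, which lies next to Kcnj10 on chromosome 1 and encodes a G-protein-gated subunit, differed by -0.03 ± 0.11. The astrocyte markers Gfap and Aqp4 differed by -2.50 ± 0.14 and -1.52 ± 0.26 in the same comparison, and their part in the values of Kcnj10 and Kcnj16 was not tested.

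Among the voltage-gated members, Kcna6 and Kcna5, pores of delayed rectifier channels, showed the same ordering. Kcna6 read 9.02, 8.88 and 8.93 in NesGFP and 7.08 to 7.56 on the other 8 arrays. Its difference from NesGFP was -1.68 ± 0.11 in the Tbr2 mean, or 3.21-fold (adjusted p = 4.31e-07, limma), and -1.69 ± 0.15 in PomcGFP. Kcna5 read 6.90, 7.25 and 7.69 in NesGFP and 5.75 to 6.20 elsewhere, where its values were close to the arrays' 25th percentiles of 5.904 to 6.200. Its difference of -1.23 ± 0.17 (adjusted p = 0.000117, limma) therefore runs down to the dim end of the array. Kcna1, a pore of the same family found in axons, differed by -0.28 ± 0.15 (adjusted p = 0.143, limma).

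The other members lower in the Tbr2 lines changed less. Kcne4, an accessory subunit that damps voltage-gated channels, differed by -0.92 ± 0.21 (adjusted p = 0.00326, limma), Kcnmb4, the neuronal subunit of the large-conductance calcium-activated channel, by -0.75 ± 0.21 (adjusted p = 0.0121, limma), and Kcnk13, a tandem-pore channel, by -0.69 ± 0.12 (adjusted p = 0.000493, limma). Kcne4 was above the 25th percentile on 3 NesGFP arrays and 1 tgTbr2GFP array, so it was kept only through NesGFP, where it is highest. Its Tbr2 values of 5.55 to 6.18 lay at the dim end of the array. Kcnmb4 read 8.73, 7.63 and 7.84 in NesGFP and 7.04 to 7.54 on the Tbr2 arrays. Kcng4, a modifier of Kcnb channels, differed by -0.57 ± 0.13, and Kcnk1, a weakly conducting tandem-pore channel, by -0.31 ± 0.08 (adjusted p = 0.00849, limma). The NesGFP arrays lay wholly above those of the Tbr2 lines for 10 of the 80 members (background 25.3%), the same 10 that were called lower. Among all members the Tbr2 arrays lay wholly above NesGFP for 14 (background 16.4%), and PomcGFP lay wholly above NesGFP for 35 (background 27.9%) and wholly below for 11 (background 30.9%). The call on Kcnk1 ended under cyclic loess normalization, at -0.16 (adjusted p = 0.128, limma). In PomcGFP minus NesGFP, Kcnk13 was -0.59 ± 0.15 and Kcne4 -0.77 ± 0.27 (adjusted p = 0.00954 and 0.0405, limma), and both calls ended without either PomcGFP array.

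**Figure D2:**
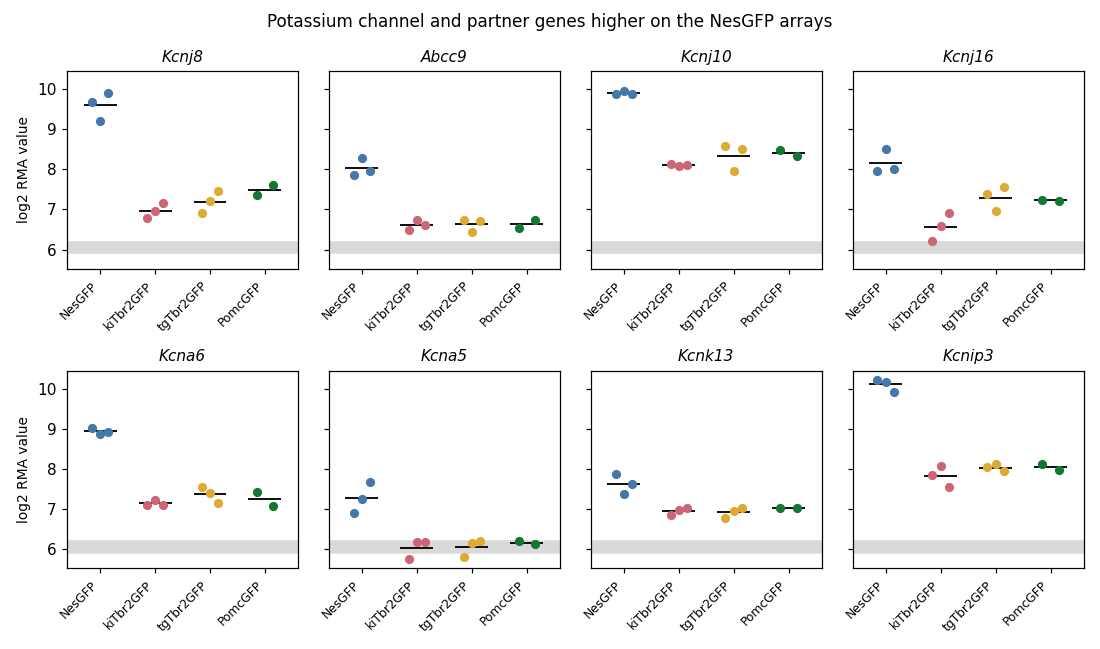
Log2 RMA value (vertical axis) of each array (points) in the 4 lines, with the line's mean (bar), for 6 potassium channel genes and the partner genes Abcc9 and Kcnip3; the grey band is the range of the arrays' 25th percentiles, 5.904 to 6.200. In each panel the 3 NesGFP points lie above the points of the other lines.

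Kcnh7 encodes an ether-a-go-go-related voltage-gated channel of neurons. It read 5.89, 5.64 and 5.70 in NesGFP, below the 25th percentile of each of those arrays. It read 8.83, 8.42 and 8.42 in kiTbr2GFP, 8.76, 9.02 and 8.70 in tgTbr2GFP, and 8.12 and 8.15 in PomcGFP. All 6 Tbr2 arrays lay above the PomcGFP arrays, and these above NesGFP. The Tbr2 mean was higher than NesGFP by 2.95 ± 0.12 (adjusted p = 2.43e-08, limma), and PomcGFP by 2.39 ± 0.16. Since NesGFP was not above the 25th percentile, these differences have only a bound: with each NesGFP array set to its 25th percentile, the Tbr2 mean was at least 6.72-fold and PomcGFP at least 4.57-fold higher. PomcGFP minus the Tbr2 mean was -0.56 ± 0.14, which missed the threshold (adjusted p = 0.0526, limma). That difference was called under 3 alternatives, with array weights (adjusted p = 0.00856), with the compared lines alone (0.0417) and with a filter at the 50th percentile (0.0469, all limma), and without NesGFP replicate 1 (0.0461) or 3 (0.0495). Gca, a protein-coding gene that overlaps Kcnh7 in RefSeq, differed by 0.38 ± 0.29 between the Tbr2 mean and NesGFP (adjusted p = 0.293, limma). Kcnh8, of the same family, was not called with its brightest probe set, but with its probe sets averaged it was higher than in NesGFP by 0.40 in the Tbr2 mean (adjusted p = 0.0136, limma) and by 0.42 in PomcGFP (adjusted p = 0.0424, limma).

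Kcnt2, a sodium-activated channel, was higher in both Tbr2 lines and in PomcGFP than in NesGFP. Its values were 6.23, 6.95 and 6.10 in NesGFP, 8.58, 8.31 and 8.22 in kiTbr2GFP, 9.04, 8.48 and 8.37 in tgTbr2GFP, and 9.18 and 9.18 in PomcGFP. Each line stood above NesGFP without overlap. Relative to NesGFP it was higher by 2.07 ± 0.20 in the Tbr2 mean, or 4.2-fold (adjusted p = 5.71e-06, limma), and by 2.75 ± 0.25 in PomcGFP, or 6.73-fold (adjusted p = 1.04e-05, limma). Its relative Kcnt1 was higher by 0.49 ± 0.12 in the Tbr2 lines and by 0.53 ± 0.16 in PomcGFP, from values of 5.86 to 6.20 in NesGFP.

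Kcnj13, an inward rectifier known from epithelia, read 7.56, 6.81 and 7.45 in NesGFP and 9.23 to 9.64 on all other arrays. It was higher than in NesGFP by 2.14 ± 0.15 in the Tbr2 mean, or 4.4-fold (adjusted p = 6.50e-07, limma), and by 2.07 ± 0.20 in PomcGFP. In RefSeq, Kcnj13 lies inside Gigyf2, a gene of translational control, and Gigyf2 was itself higher in the Tbr2 lines by 0.76 ± 0.12 (adjusted p = 0.000285, limma). The part of Gigyf2 transcripts in the Kcnj13 probe set was not tested. Kcnmb3, a subunit of the large-conductance calcium-activated channel, has the same limit. It was higher by 0.31 ± 0.11 (adjusted p = 0.0306, limma) and overlaps Pik3ca, a lipid kinase gene higher by 1.84 ± 0.19.

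Kcnb2, Kcnq5 and Kcnq3, voltage-gated pores of neurons, were also higher in the Tbr2 lines than in NesGFP. Kcnb2, a slow delayed rectifier, read 7.25, 6.56 and 6.69 in NesGFP, 8.30, 8.04 and 8.45 in kiTbr2GFP, 8.0, 8.72 and 8.47 in tgTbr2GFP, and 7.88 and 7.82 in PomcGFP. The Tbr2 mean was higher than NesGFP by 1.5 ± 0.18 (adjusted p = 4.07e-05, limma) and PomcGFP by 1.01 ± 0.24 (adjusted p = 0.00529, limma). Kcnq5 and Kcnq3, which form the M-current that restrains repeated firing, were higher in the Tbr2 lines by 0.80 ± 0.18 and 0.41 ± 0.12. In PomcGFP minus NesGFP, Kcnq3 was 0.75 ± 0.16 (adjusted p = 0.00271, limma) while Kcnq5 was 0.37 ± 0.23 (adjusted p = 0.219, limma). The Kcnq3 call in the Tbr2 lines ended without NesGFP replicate 3, at 0.26 (adjusted p = 0.0598, limma).

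Leak channels changed in both directions. Kcnk9, an acid-sensitive tandem-pore channel of neurons, read 6.33, 6.59 and 6.64 in NesGFP and 7.02 to 7.66 elsewhere, and was higher by 0.76 ± 0.13 in the Tbr2 lines (adjusted p = 4e-04, limma) and by 0.74 ± 0.16 in PomcGFP. Kcnk7, a relative with no known current of its own, was higher by 0.44 ± 0.11. Against these stand the lower values of Kcnk13 and Kcnk1, and 10 of the 14 Kcnk genes passed neither the F test nor these comparisons.

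The remaining members called higher in the Tbr2 lines were mostly dim. Kcnj5, a G-protein-gated rectifier subunit, was higher by 0.76 ± 0.24 (adjusted p = 0.0219, limma), with values of 5.73 to 6.0 in NesGFP, 6.19 to 7.63 in the Tbr2 lines and 6.03 and 5.97 in PomcGFP. Kcnmb2, which inactivates the large-conductance calcium-activated channel, was higher by 0.67 ± 0.17 (adjusted p = 0.00564, limma). Kcne2 differed by 0.47 ± 0.12, Kcnv2 by 0.42 ± 0.09, Kcna10 by 0.40 ± 0.14 and Kcna7 by 0.29 ± 0.08. Kcnj5 was kept only through the Tbr2 lines, where it is highest, and Kcne2 was above the 25th percentile on only 3 arrays. With each NesGFP array set to its 25th percentile, the Tbr2 mean was 1.57-fold higher for Kcnj5 and 1.11-fold for Kcne2. Of the 27 calls, 8 concerned members that a filter at the 50th percentile removes (Kcna10, Kcna7, Kcne2, Kcne4, Kcnj5, Kcnmb2, Kcnt1 and Kcnv2). Without NesGFP replicate 1, Kcnj5 was 0.71 (adjusted p = 0.0719, limma), Kcna10 0.26 (0.148) and Kcnmb3 0.29 (0.0838), and leaving out other single NesGFP or Tbr2 arrays also ended each of these calls.

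**Figure D3:**
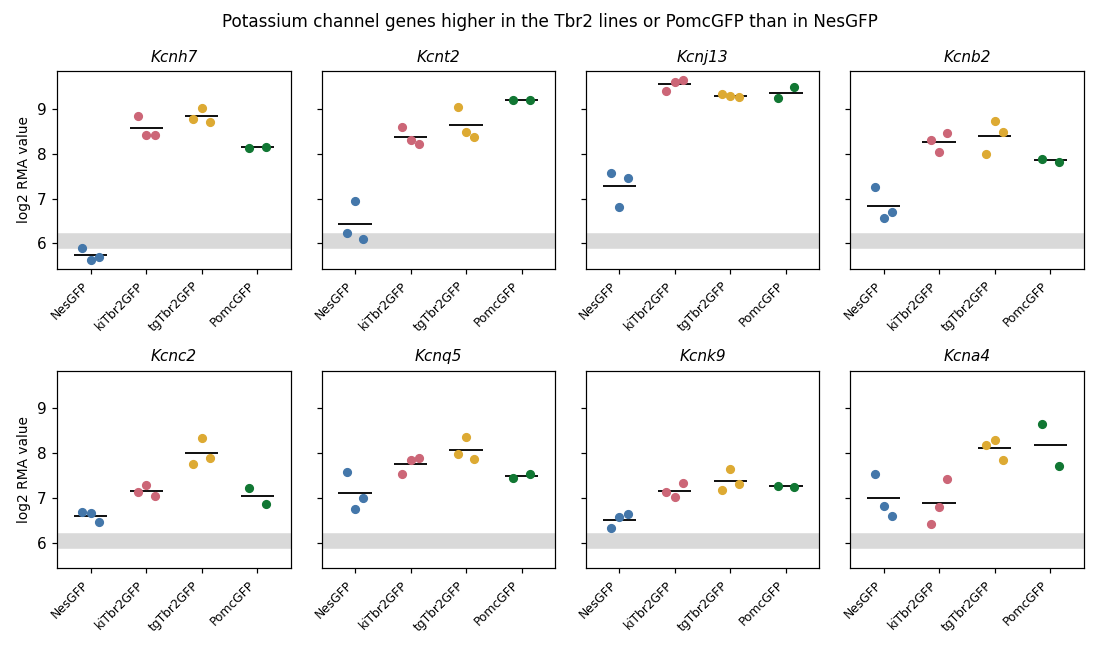
Log2 RMA value (vertical axis) of each array (points) in the 4 lines, with the line's mean (bar), for 8 potassium channel genes; the grey band is the range of the arrays' 25th percentiles, 5.904 to 6.200. Kcnh7 in NesGFP lies below the band, Kcnc2 and Kcna4 have every tgTbr2GFP point above the kiTbr2GFP points, and Kcnh7, Kcnt2, Kcnj13, Kcnb2 and Kcnk9 have every other point above the NesGFP points.

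The 5 members called higher in PomcGFP than in the Tbr2 mean were Kcnj3, Kcnj6, Kcnd2, Kcnf1 and Kcnh1. Kcnj3, the shared subunit of neuronal G-protein-gated rectifiers, read 8.88 and 8.50 in PomcGFP, 7.46, 7.24 and 7.23 in kiTbr2GFP, 7.69, 7.52 and 7.44 in tgTbr2GFP, and 7.06, 7.37 and 6.97 in NesGFP. Both PomcGFP arrays lay above all others. PomcGFP was higher than the Tbr2 mean by 1.26 ± 0.14, or 2.4-fold (adjusted p = 0.000694, limma), than kiTbr2GFP by 1.38 ± 0.16 and than tgTbr2GFP by 1.14 ± 0.16 (adjusted p = 0.00686, limma).

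Kcnj6, its partner subunit, read 7.60 and 7.67 in PomcGFP, 6.04, 6.03 and 6.24 in kiTbr2GFP, 6.87, 6.29 and 6.53 in tgTbr2GFP, and 6.10, 6.27 and 6.12 in NesGFP. In kiTbr2GFP and NesGFP it lay close to the 25th percentile of the array. PomcGFP was higher than the Tbr2 mean by 1.30 ± 0.14, or 2.47-fold (adjusted p = 0.000564, limma), and than NesGFP by 1.47 ± 0.16, or 2.78-fold. Kcnj3 and Kcnj6 kept their calls under each alternative tried and with each array left out in turn. Kcnj9, the third neuronal subunit of this type, differed by 0.28 ± 0.13 between PomcGFP and the Tbr2 mean (adjusted p = 0.397, limma).

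Kcnd2, the pore of the somatodendritic A-type current, read 9.35 and 8.53 in PomcGFP, 6.94, 7.17 and 7.16 in kiTbr2GFP, 7.93, 7.49 and 7.77 in tgTbr2GFP, and 7.13, 8.07 and 7.06 in NesGFP. PomcGFP was higher than the Tbr2 mean by 1.53 ± 0.27, or 2.89-fold (adjusted p = 0.00873, limma), and than NesGFP by 1.52 ± 0.30. Against tgTbr2GFP alone it was higher by 1.21, which missed the threshold (adjusted p = 0.0961, limma). Without PomcGFP replicate 1 the difference from the Tbr2 mean was 1.12 (adjusted p = 0.18, limma). Kcnd3, another A-type pore, differed by 0.14 ± 0.12, and Kcnd1 by 0.17 ± 0.16, in the same comparison.

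Kcnf1, a modifier of Kcnb channels, and Kcnh1, an ether-a-go-go channel, were higher in PomcGFP than in the Tbr2 mean by 0.61 ± 0.14 and 0.60 ± 0.15 (adjusted p = 0.0298 and 0.047, limma). Kcnf1 read 7.43 and 7.40 in PomcGFP and 6.53 to 6.99 on the Tbr2 arrays, and Kcnh1 7.76 and 7.59 against 6.90 to 7.17. Neither set of arrays overlapped, a separation found for 14 members and for 8.74% of all genes. Without PomcGFP replicate 1 the adjusted p was 0.246 for Kcnf1 and 0.407 for Kcnh1, and without replicate 2 it was 0.211 and 0.188 (limma). Array medians centred, cyclic loess or no filter also ended the call on Kcnh1, at 0.0515 to 0.0765. With the replicate number as a block the adjusted p was 0.103 for Kcnh1 and 0.0562 for Kcnf1 (limma). In NesGFP, Kcnf1 read 7.16, 7.19 and 6.90, and PomcGFP minus NesGFP was 0.33, which was not called. The Tbr2 mean minus NesGFP was -0.28 for Kcnf1 and not called. It was called under cyclic loess at -0.31 and with centred medians at -0.35 (adjusted p = 0.0299 and 0.0179, limma).

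Markers of other cells also moved between PomcGFP and the Tbr2 lines. Calb1, a calcium buffer of mature granule neurons, was higher in PomcGFP by 2.28 ± 0.24, the myelin gene Mbp by 1.46 ± 0.26 and the microglial receptor gene Cx3cr1 by 0.51 ± 0.11. By lists, 4 of 13 granule neuron maturation markers, 2 of 9 oligodendrocyte markers and 3 of 9 microglia markers were called higher (background 2%). Of 10 markers of inhibitory neurons, Gad1 was higher, at 1.00 ± 0.13, and 1 was lower (background 1.73%). The lower one was Reln, which is also on the Cajal-Retzius list. Of the 7 Cajal-Retzius markers, 3 were called lower, namely Reln at -2.61 ± 0.27, Ndnf at -3.10 ± 0.33 and Cxcr4 at -0.68 ± 0.12. Oligodendrocyte markers averaged 9.14 and 9.10 on the PomcGFP arrays, 7.42 to 8.11 in kiTbr2GFP, and 9.32, 7.42 and 7.79 in tgTbr2GFP. Microglia markers averaged 7.59 on both PomcGFP arrays and 6.83 to 7.25 on the Tbr2 arrays. The part of these cells in the values of Kcnj3, Kcnj6 and Kcnd2 was not tested.

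Several members differed between PomcGFP and NesGFP while their differences from the Tbr2 mean missed the threshold on either side. Kcna4, a fast-inactivating pore, read 8.64 and 7.71 in PomcGFP and 8.19, 8.29 and 7.85 in tgTbr2GFP. It read 6.43, 6.80 and 7.43 in kiTbr2GFP, and 7.55, 6.83 and 6.61 in NesGFP. For Kcna4 the Tbr2 mean therefore averages lines that did not overlap. It was called more than 2-fold higher in tgTbr2GFP than in NesGFP, while its kiTbr2GFP values overlapped those of NesGFP. PomcGFP minus NesGFP was 1.18 ± 0.35 (adjusted p = 0.02, limma), and 0.71 without PomcGFP replicate 1 (adjusted p = 0.224, limma). Among modifiers of Kcnb channels, Kcng3 differed by 0.53 ± 0.15 and Kcnv1 by 0.54 ± 0.19. The difference of Kcng3 from the Tbr2 mean had an adjusted p of 0.0518 and was called under 5 of 9 alternatives, at 0.0432 to 0.0462, and without kiTbr2GFP replicate 2 (0.0267) or NesGFP replicate 3 (0.0492, all limma). Kcnc1, a pore of fast-spiking neurons, differed by 0.34 ± 0.12, and the opposite-strand transcript Kcnmb4os1 by 0.60 ± 0.22, while the Kcnmb4 gene it lies in differed by -0.39 ± 0.27. Leaving out PomcGFP replicate 1 left 17 of the 30 calls in this comparison, and leaving out replicate 2 left 18. Kcng3, Kcnv1, Kcnc1 and Kcnmb4os1 were among those lost without replicate 1.

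**Figure D4:**
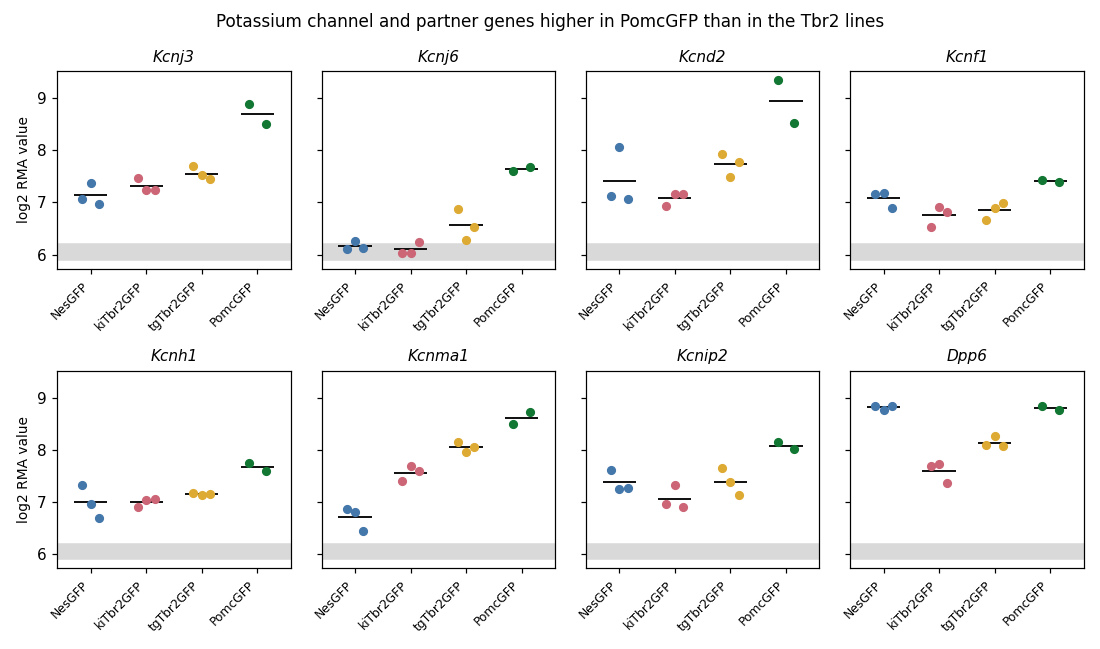
Log2 RMA value (vertical axis) of each array (points) in the 4 lines, with the line's mean (bar), for 5 potassium channel genes and the partner genes Kcnma1, Kcnip2 and Dpp6; the grey band is the range of the arrays' 25th percentiles, 5.904 to 6.200. PomcGFP lies above both Tbr2 lines in each panel, and Dpp6 in NesGFP lies as high as in PomcGFP.

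Between the knock-in and BAC Tbr2 lines, 1 of the 80 members was called (1.25%), against 1.12% of all genes, and it was lower in kiTbr2GFP (background 0.684%). It was Kcnc2, a pore of fast-firing neurons, which read 7.14, 7.30 and 7.06 in kiTbr2GFP and 7.77, 8.33 and 7.90 in tgTbr2GFP. Its values in NesGFP were 6.70, 6.67 and 6.47, and in PomcGFP 7.23 and 6.88. The difference kiTbr2GFP minus tgTbr2GFP was -0.83 ± 0.16, or 1.78-fold lower (adjusted p = 0.03, limma), and PomcGFP minus tgTbr2GFP was -0.94 ± 0.18 (adjusted p = 0.026, limma). The Tbr2 mean was higher than NesGFP by 0.97 ± 0.14 (adjusted p = 0.000121, limma). Without any 1 of the kiTbr2GFP arrays, or without tgTbr2GFP replicate 2 or 3, the adjusted p of the line difference was 0.0746 to 0.14. With the replicate number as a block it was 0.0551 (limma). No member was called higher in kiTbr2GFP (background 0.436%), and 0 were higher and 7 lower at an unadjusted p under 0.05 in limma. The 2 lines did not overlap for 11 members with kiTbr2GFP below (background 9.38%) and 2 with it above (background 7.78%). The former include Kcna4 at -1.22 ± 0.31 (adjusted p = 0.114, limma), Kcnj16 at -0.72 ± 0.21 and Kcnj6 at -0.46 ± 0.14. With array weights, Kcna4 was called at -1.33 and Kcnj16 at -0.52 (adjusted p = 0.00265 and 0.0452, limma). Of 12 astrocyte markers, 3 were called lower in kiTbr2GFP (Slc1a3 at -0.65, S100b at -1.11 and Clu at -1.17), and 8 lay wholly below tgTbr2GFP. Of 13 granule neuron maturation markers, Camk2a was called lower, at -1.82 ± 0.26, while Calb1 differed by -1.09 ± 0.24 (adjusted p = 0.0562, limma). The part of these cells in the members' values was not tested.

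By family, the share of members past the F test varied, beside 43.4% of all genes. Of 14 Kcnj inward rectifiers, 6 passed the F test (42.9%), as did 5 of 8 Kcna pores (62.5%) and 4 of 14 Kcnk leak channels (28.6%). The smaller families gave 2 of 7 Kcnh channels, 2 of 3 Kcnq channels and both Kcnt channels. Kcnb2 was the only Kcnb gene kept, and it passed. Of the 3 Kcnc genes and the 3 Kcnd genes, 1 each passed. Kcnf1, the only Kcnf gene kept, passed, as did 2 of 4 Kcne, 2 of 4 Kcng, 1 of 4 Kcnmb and 1 of 2 Kcnv genes. The 4 Kcnn genes, small- and intermediate-conductance calcium-activated channels, passed in 0 of the tests by limma, and 0 passed at an unadjusted p under 0.05 in any comparison of lines. Kcnn2 read 8.13 to 9.02 in NesGFP, 8.39 to 8.76 in kiTbr2GFP, 8.39 to 8.66 in tgTbr2GFP, and 8.15 and 8.35 in PomcGFP. The overlap with NesGFP rests on NesGFP replicate 3 at 8.13, and without that array Kcnn2 was called at -0.41 in the Tbr2 mean (adjusted p = 0.0179, limma) and at -0.70 in PomcGFP (adjusted p = 0.00362, limma). The 3 Kcns modifiers also passed in 0 tests by limma, with 1 higher at an unadjusted p under 0.05 in each of PomcGFP minus NesGFP, kiTbr2GFP minus NesGFP and PomcGFP minus kiTbr2GFP. Kcns3 read 7.23 to 7.58 in NesGFP and 7.51 to 7.83 in the Tbr2 lines. Its difference in the Tbr2 mean was called under cyclic loess, at 0.29 (adjusted p = 0.0272, limma), and without NesGFP replicate 3, at 0.33 (adjusted p = 0.0206, limma).

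Over the brightest probe set of each gene, other widely known channels were not called. Kcnk2, a mechanically gated leak channel, read 7.63 to 8.10 over all 11 arrays. Kcna2, an axonal pore, read 7.45 to 8.19 with its brightest probe set, and with its probe sets averaged PomcGFP minus NesGFP was 0.40 (adjusted p = 0.046, limma). Kcnh3 and Kcnq1 differed by 0.16 ± 0.11 and -0.00 ± 0.10 between the Tbr2 mean and NesGFP. Kcnj2, the classical strong inward rectifier, was above the 25th percentile on 1 NesGFP and 1 PomcGFP array, and Kcne1 on 2 NesGFP arrays. Over the 42 members that passed no test, the largest difference in either direction was 0.29 for the Tbr2 mean minus NesGFP, 0.45 for PomcGFP minus NesGFP, 0.52 for PomcGFP minus the Tbr2 mean and 0.58 between the Tbr2 lines.

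All 18 genes on the list of auxiliary and accessory subunits were measured. The list also holds Kcnma1, a pore gene, and Kcnrg, which is not a subunit. Between the Tbr2 mean and NesGFP, 11 of the 18 (61.1%) were called, 6 higher and 5 lower. The backgrounds were 19.8% higher and 29.1% lower. Kcnma1 and Kcnrg are among the 6. Kcnip3, a calcium-binding subunit of A-type channels that also acts as a transcriptional repressor, differed by -2.18 ± 0.12 (adjusted p = 1.36e-07, limma), and read 9.93 to 10.23 in NesGFP and 7.56 to 8.13 elsewhere. Its relative Kcnip4 was higher by 1.74 ± 0.18 (adjusted p = 1.13e-05, limma), from 5.52 to 5.96 in NesGFP to 6.75 to 8.09 in the Tbr2 lines, and read 8.54 and 7.84 in PomcGFP. Kcnrg, which interferes with the assembly of Kcna channels, was higher by 2.62 ± 0.40, with NesGFP arrays scattered at 5.55, 7.70 and 5.93. Kcnab2, a cytoplasmic subunit of Kcna channels, differed by -1.13 ± 0.14.

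Between PomcGFP and the Tbr2 mean, 5 of the 18 were higher (background 2%) and 0 lower (background 1.73%) by limma. The pore gene Kcnma1 is among the 5. At an unadjusted p under 0.05 there were 8 higher and 0 lower. Kcnma1 read 8.49 and 8.72 in PomcGFP, 7.41, 7.70 and 7.59 in kiTbr2GFP, 8.16, 7.97 and 8.05 in tgTbr2GFP, and 6.87, 6.82 and 6.45 in NesGFP. The lines therefore stood in the order NesGFP, kiTbr2GFP, tgTbr2GFP and PomcGFP without overlap. PomcGFP was higher than the Tbr2 mean by 0.79 ± 0.14 (adjusted p = 0.00813, limma) and the Tbr2 mean higher than NesGFP by 1.10 ± 0.12 (adjusted p = 1.63e-05, limma). Without PomcGFP replicate 1 or 2 the former had an adjusted p of 0.0546 or 0.147 (limma).

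Of the 6 listed auxiliary subunits of A-type channels, 2 were called higher in PomcGFP than in the Tbr2 mean. Kcnip2 was higher than the Tbr2 mean by 0.85 ± 0.17 (adjusted p = 0.0154, limma), and Dpp6 by 0.94 ± 0.12 (adjusted p = 0.00135, limma). Kcnip1 differed by -0.40, Dpp10 by -0.25, Kcnip3 by 0.12 and Kcnip4 by 0.70, and none of these was called. Dpp6 also read 8.76 to 8.85 in NesGFP. When the probe sets of a gene were averaged, the Dpp6 difference from the Tbr2 mean was 0.37 (adjusted p = 0.211, limma). Kcnab2 was higher by 0.99 ± 0.17 and the large-conductance channel subunit Lrrc55 by 0.74 ± 0.14. Without PomcGFP replicate 1 the adjusted p was 0.198 for Kcnip2, 0.138 for Kcnab2 and 0.0632 for Lrrc55 (limma), and without PomcGFP replicate 2 it was 0.102 for Kcnip2 and 0.232 for Lrrc55. Kcnab2 was the only one of the 18 called between the Tbr2 lines, at -1.02 ± 0.17 for kiTbr2GFP minus tgTbr2GFP (adjusted p = 0.0151, limma).

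Of 14 genes that anchor or cluster channels, 3 were called higher (background 19.8%) and 5 lower (background 29.1%) in the Tbr2 lines than in NesGFP. Ank3, the scaffold of the axon initial segment that holds Kcnq channels, was higher by 0.90 ± 0.10 and Adam22, a receptor of the Lgi1 protein, by 1.09 ± 0.17. Adam23 differed by -0.99 ± 0.12, Cntn2, an adhesion protein that clusters Kcna channels beside nodes, by -0.83 ± 0.16, and the postsynaptic scaffold gene Dlg4 by -0.70 ± 0.16. In PomcGFP minus the Tbr2 mean, 4 were higher (background 2%) and 1 lower (background 1.73%). Dlg2, a related scaffold, was higher by 1.58 ± 0.33, Lgi1 by 1.12 ± 0.22 and Cntnap1 by 1.06 ± 0.18, while Cntnap2 differed by -0.67 ± 0.15. Without PomcGFP replicate 1 none of these kept its call, with adjusted p of 0.208 for Dlg2, 0.214 for Lgi1, 0.141 for Cntnap1, 0.079 for Cntnap2 and 0.45 for Dlg4 (limma).

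Of the hyperpolarization-activated cation channels, 3 of 4 listed genes were measured. Hcn2 differed by -0.90 ± 0.13 between the Tbr2 mean and NesGFP (adjusted p = 0.000157, limma), and read 7.37 to 7.98 in NesGFP and 6.50 to 6.85 elsewhere. Hcn3 and Hcn4 differed by 0.22 ± 0.09 and 0.15 ± 0.11, and neither was called.

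Of 14 listed genes of the sodium-potassium pump and of potassium-coupled chloride transport, 10 were measured, and 5 were lower in the Tbr2 lines than in NesGFP (background 29.1%) with 0 higher (background 19.8%), adjusted or unadjusted, by limma. Fxyd1, a regulator of the pump, differed by -2.63 ± 0.19 and Atp1b2, the glial beta subunit, by -1.76 ± 0.10 (adjusted p = 1.23e-07, limma). Slc12a4, a potassium-chloride cotransporter of many tissues, differed by -1.14 ± 0.15. Atp1b1, the neuronal beta subunit, was also among the 5, at -0.77 ± 0.16 (adjusted p = 0.00234, limma). It read 9.47, 9.80 and 9.51 in NesGFP. By line, it was lower than in NesGFP by -1.35 ± 0.19 in kiTbr2GFP, and by -0.18 ± 0.19 in tgTbr2GFP, which was not called. In PomcGFP, Atp1b1 was higher than the Tbr2 mean by 1.62 ± 0.19 (adjusted p = 0.000743, limma). It read 10.44 and 10.45 there against 7.98 to 9.65 in the Tbr2 lines. Slc12a5, the neuronal cotransporter that lowers chloride as neurons mature, was higher by 0.65 ± 0.15 (adjusted p = 0.0297, limma), a call that ended without either PomcGFP array at adjusted p of 0.174 and 0.278 (limma). Both Atp1b1 and Atp1b2 were also lower in kiTbr2GFP than in tgTbr2GFP, at -1.16 ± 0.19 and -0.80 ± 0.11.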

How the data were processed

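The authors deposited one table of log2 expression values for 11 Affymetrix Mouse Gene 1.0 ST arrays; per the submitters' processing notes it was made with RMA in oligo, which corrects the background, normalizes by quantiles and summarizes probes, with versions and annotation release not given in the sources used here. RMA pulls small differences together at the dim end of the array, so differences that start near the 25th percentile may be understated. No depth applies, and the number of arrays limits the precision.

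From the 28858 probe sets, 21789 had 1 gene symbol in GEO's platform annotation, 1621 had several and 5448 were not listed. Probe sets above the array's 25th percentile on at least 2 arrays were kept, the one with the highest mean standing for a gene. One limma fit (limma 3.58.1, R 4.3.3) of the 4 line means over all 11 arrays gave each difference, with 7 residual and 4.22 prior degrees of freedom and Benjamini-Hochberg adjustment over 16527 genes; all tests are two-sided, and errors after ± are standard errors. The script was tested on simulated data. All 80 members matched RefSeq (GRCm38.p6) by gene ID; RefSeq gave names, neighbours and promoter windows. Members, gene lists and tests were chosen with earlier results of these data known. Genes named with values were, per comparison, up to 10 called members in each direction, members past the F test, and up to 3 called genes per direction of a partner list. The brightest member of a family was also named, except Kcne1l and Kcng1. A few others (Kcna1, Kcna2, Kcnd1, Kcnd3, Kcnh3, Kcnj2, Kcnj9, Kcnj11, Kcnk2, Kcnq1, Abcc8, Hcn3, Hcn4 and the overlapping genes) were added after their values were seen. Kcnh8, Kcnip1, Dpp10, Lrrc55 and the markers Ndnf, Cxcr4, Slc1a3, S100b, Clu and Camk2a were also named outside these rules. Levels were not compared between genes. Alternatives were other filters, means of probe sets, cyclic loess, centred medians, a trended robust prior, array weights, a replicate block, the compared lines alone, and each array left out.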

Additional observations from a re-analysis of the deposited data

Results flagged for a closer look

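Kcnc2 differed between the Tbr2 lines in its change from NesGFP: the kiTbr2GFP change minus the tgTbr2GFP change was -0.83 on the log2 scale (adjusted p = 0.03, limma, tested as the difference of the lines over 3 arrays each), and no cause was tested. With 2 or 3 arrays per line, single arrays were not tested as outliers.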

How the results depend on the processing

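Of 63 called member differences in the 4 comparisons, 32 kept their call under all 9 alternatives and with each array left out, 35 under the 9 alternatives alone, and 0 reversed; members removed by the filter at the 50th percentile count as lost. The count of 27 for the Tbr2 mean minus NesGFP stayed within 1.5 times under each, at 25 to 30 with an array left out. For PomcGFP minus the Tbr2 mean the count of 5 became 12 with array weights (9 higher, 3 lower), 8 with the compared lines alone, and 2 to 7 with an array left out. For PomcGFP minus NesGFP the count of 30 became 15 with the 2 lines alone and 18 to 31 with an array left out; for kiTbr2GFP minus tgTbr2GFP the count of 1 became 9 with array weights and 0 to 1. The F test's 31 became 24 to 32 with an array left out. The cause of these moves was not tested, beyond fewer arrays where some were left out. Leaving out a PomcGFP array leaves that line with 1, assumed to vary like the other lines. Same-numbered arrays of different lines deviated together at correlations of -0.106 to 0.262, over 0.1 in 4 of 15 pairs. These include every pair of replicate 3 arrays, at 0.262, 0.154 and 0.134. Whether arrays of one number were handled together was not tested. With the replicate number as a block the counts were 27, 3, 27, 0 and 35 for, in order, the Tbr2 mean minus NesGFP, PomcGFP minus the Tbr2 mean, PomcGFP minus NesGFP, kiTbr2GFP minus tgTbr2GFP, and F. The block ended the calls on Kcnf1 (adjusted p = 0.0562) and Kcnh1 (0.103) in PomcGFP minus the Tbr2 mean and on Kcnc2 between the Tbr2 lines (0.0551, limma). Dim members near the 25th percentile limit what the arrays can show.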
